A study of Mus musculus with 14 samples.

Results

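The nuclear genes for complexes II to V of the respiratory chain and for cytochrome c were followed in bulk messenger RNA of the mouse left ventricle. They were chosen by gene symbol alone, namely Sdha, Sdhb, Sdhc, Sdhd, Cyc1 and Cycs, and every symbol that begins with Uqcr, with Atp5 or with Cox4, Cox5, Cox6, Cox7 or Cox8, leaving out names that contain -ps. This took 49 of the 24054 genes of the count table, with 4 for complex II, 9 for complex III, 1 for cytochrome c, 18 for complex IV and 17 for complex V. The symbol rule also took Cox7a2l, a supercomplex assembly factor related to subunit 7A, and Atp5s and Atp5sl, which are not subunits of the ATP synthase. The study had 14 libraries in 3 groups of C56Bl6 mice, as the strain is labelled. HFpEF-FoxO1-sh (5 libraries) and HFpEF-scr (4 libraries) both were given L-NAME, which inhibits nitric oxide synthase enzymes, and a diet high in fat for 6 weeks, a model of heart failure with preserved ejection fraction. Both also had an adeno-associated virus (AAV) for 4 weeks, which carried a short hairpin RNA against FoxO1 in the first group and a scrambled hairpin in the second. The controls (5 libraries) had a standard diet for 10 weeks, and their labels name no virus, so that diet, L-NAME and virus cannot be told apart in a comparison with them. The labels give neither the promoter of the hairpins nor the cell type they act in.

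Respiratory chain complexes pass electrons from NADH and succinate to oxygen and build the proton gradient that the ATP synthase uses. Complex II oxidises succinate in the citric acid cycle and hands the electrons to ubiquinone, complex III passes them on to cytochrome c, complex IV (cytochrome c oxidase) reduces oxygen, and complex V is the ATP synthase. Heart muscle is among the tissues richest in mitochondria, and several small subunits of complex IV exist there in a heart and skeletal muscle form beside a form found in most tissues. The subunits that are encoded in mitochondrial DNA are not among the members.

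Total counts were between 13.2 and 21.2 in units of 1000000 per library, and the members took 3.62% to 3.78% of them in HFpEF-FoxO1-sh, 3.36% to 3.58% in HFpEF-scr and 3.56% to 3.59% in the controls. Foxo1 itself, whose reduction the hairpin is meant to bring about, was not called in any comparison, with log2 fold changes of -0.04 in HFpEF-FoxO1-sh against HFpEF-scr (edgeR adjusted p = 0.780), -0.05 against the controls (0.583) and -0.02 in HFpEF-scr against the controls (0.904). Markers of heart muscle cells were present in every library. The immediate early genes had their highest sums in HFpEF-scr 1 and 2, at 4019 and 5681 CPM, against 1321 and 2304 CPM in HFpEF-scr 3 and 4, 675 to 2680 CPM in HFpEF-FoxO1-sh and 603 to 3818 CPM in the controls, of which control 5 came close to HFpEF-scr 1. Results were also computed without HFpEF-scr 1 and 2, a choice made with earlier results of these data known. The 3 comparisons are not independent, since each pair of them shares a group, so their values are given side by side.

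Of the 49 members 47 were expressed highly enough to be tested. CPM are counts per 1000000 after TMM scaling, a gene was called at a Benjamini-Hochberg adjusted p under 0.05 over all 13588 genes tested, and changes are log2 fold changes ± SE. Levels spanned a wide range. Per kilobase of annotated transcript, Atp5b, the catalytic beta subunit of the ATP synthase, stood highest with 2928 ± 40.0 CPM per kb in HFpEF-FoxO1-sh, 2673 ± 136 in HFpEF-scr and 2716 ± 48.4 in the controls (SD, n = 5, 4 and 5). Cox6a2, the muscle form of subunit 6A, followed with 2368 ± 171, 2269 ± 54.0 and 2486 ± 110.1 CPM per kb in the same order of groups. At the low end were Cox4i2, a form of subunit 4 known from lung, with 5.38 ± 0.528, 5.42 ± 0.482 and 5.85 ± 0.754 CPM, and Cox6b2, the testis form of subunit 6B, with 1.04 ± 0.347, 0.640 ± 0.211 and 0.827 ± 0.271 CPM. Cox7b2 and Cox8c, both testis forms, were not tested. Cox7b2 reached at most 0.422 CPM in any library, and Cox8c was at 0 CPM in all 14.

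HFpEF-scr against control asks what the diet with L-NAME and the scrambled hairpin did to these genes. A small group fell, led by the muscle form Cox7a1 and by Atp5g1, and most of the rest lay slightly below the controls without being called. In numbers, 6 of the 47 members were called, where 7.37% of all genes tested were called. Of these 5 fell, where 3.70% of all genes tested fell, and 1 rose, where 3.66% of all genes rose. The median change of the members was -0.05, beside 0.0016 for all genes tested, with 38 members below 0 and 9 above. The values of both groups did not overlap for 10 members, all lower in HFpEF-scr, against a background of 4.64% for that direction, and none was higher without overlap, against 4.29%. The fit was made on bulk tissue, in which fewer cells of a type and less RNA per cell cannot be told apart.

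Cox7a1 encodes the heart and skeletal muscle form of subunit 7A of complex IV (chromosome 7, 30184144 to 30186078, plus strand, GRCm38). Its level was 503, 459, 463, 463 and 475 CPM in the HFpEF-FoxO1-sh libraries, 453, 408, 424 and 419.6 CPM in HFpEF-scr and 561, 547, 510.4, 509 and 549 CPM in the controls. Every library of both HFpEF groups lay below every control, and every HFpEF-FoxO1-sh library lay above every HFpEF-scr library. Cox7a1 fell by 0.33 ± 0.04 in HFpEF-scr against control (edgeR adjusted p = 3.67e-04) and fell by 0.18 ± 0.04 in HFpEF-FoxO1-sh against control (edgeR adjusted p = 0.00917). The difference between HFpEF-FoxO1-sh and HFpEF-scr was 0.15 ± 0.04 and was not called (edgeR adjusted p = 0.0663).

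Atp5g1 (chromosome 11, 96068852 to 96075670, minus strand) is 1 of 3 genes for subunit c, which forms the proton-driven ring of the ATP synthase. Its level was 628, 619.5, 629, 633 and 538 CPM in the HFpEF-FoxO1-sh libraries, 593, 549, 573 and 597 CPM in HFpEF-scr and 729, 692, 693, 679.9 and 688 CPM in the controls. Again all 9 HFpEF libraries lay below all 5 controls, while HFpEF-FoxO1-sh 5 was below every HFpEF-scr library and the other 4 above. It fell by 0.27 ± 0.05 in HFpEF-scr against control (edgeR adjusted p = 0.00357) and fell by 0.19 ± 0.04 in HFpEF-FoxO1-sh against control (edgeR adjusted p = 0.0101). Cox7a1 and Atp5g1 were called lower in both comparisons with the controls under all 20 alternative settings or refits of each.

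The other 2 subunit c genes, which encode the same mature protein, did not share that pattern. Atp5g3 had 1135, 1122, 1154, 1083 and 1034 CPM in the HFpEF-FoxO1-sh libraries, 989.8, 927, 984 and 1021 CPM in HFpEF-scr and 1016, 979, 986, 1029 and 1015 CPM in the controls, so that its HFpEF-FoxO1-sh libraries lay above all others. It rose by 0.17 ± 0.04 against HFpEF-scr (edgeR adjusted p = 0.0279) and rose by 0.14 ± 0.04 against control (edgeR adjusted p = 0.0224). The rise against control was called in 16 of 20 alternatives and was lost without control 2 or 3 or HFpEF-FoxO1-sh 1 or 3. Atp5g2 was called in no comparison, with changes between -0.01 and 0.04. Near-identical transcripts of other annotated genes exist for Atp5g1 and Atp5g2, but none of those genes is in the count table. Such transcripts exist for 9 members, the others being Uqcrb, Cox7c, Atp5c1, Atp5h, Atp5k, Atp5l and Atp5o. Only for Cox7c is such a gene in the count table.

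Muscle form Cox8b, of subunit 8, also fell in HFpEF-scr. It had 264, 256, 263, 261 and 230.3 CPM in the HFpEF-FoxO1-sh libraries, 246, 229, 224 and 235 CPM in HFpEF-scr and 255, 266, 271, 258 and 265 CPM in the controls. All HFpEF-scr libraries lay below all controls, and HFpEF-FoxO1-sh 5 lay among the HFpEF-scr values while the other 4 lay among the controls. The change was -0.17 ± 0.04 in HFpEF-scr against control (edgeR adjusted p = 0.0317). It was called in 12 of 20 alternatives and lost without control 2, 3 or 5 or HFpEF-scr 2, 3 or 4, and its highest edgeR adjusted p was 0.129, with the immediate early score as a covariate. It was 0.13 ± 0.04 in HFpEF-FoxO1-sh against HFpEF-scr and -0.05 ± 0.04 against control, neither of them called (edgeR adjusted p = 0.123 and 0.538).

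Both members of complex III that fell in HFpEF-scr rose in HFpEF-FoxO1-sh against HFpEF-scr. Cyc1, which encodes cytochrome c1, had 842, 802, 823, 829 and 769.5 CPM in the HFpEF-FoxO1-sh libraries, 694, 720.3, 734 and 761 CPM in HFpEF-scr and 819, 818, 801, 810.3 and 814 CPM in the controls. It fell by 0.16 ± 0.04 in HFpEF-scr against control (edgeR adjusted p = 0.0157), rose by 0.16 ± 0.04 in HFpEF-FoxO1-sh against HFpEF-scr (edgeR adjusted p = 0.0259), and was at 0.00 ± 0.03 in HFpEF-FoxO1-sh against control (edgeR adjusted p = 0.988). Uqcrc1, a core protein of the complex, had 1486, 1441, 1448, 1471 and 1378 CPM in the HFpEF-FoxO1-sh libraries, 1186, 1286, 1306 and 1351 CPM in HFpEF-scr and 1413, 1377, 1406, 1433 and 1447 CPM in the controls. It fell by 0.14 ± 0.04 (edgeR adjusted p = 0.0375), rose by 0.17 ± 0.04 (edgeR adjusted p = 0.0272) and was at 0.03 ± 0.04 (edgeR adjusted p = 0.65) in the same 3 comparisons. For both genes the 4 HFpEF-scr libraries lay below all 10 others. The fall of Cyc1 was called in 18 of 20 alternatives and its rise in 11. For Uqcrc1 they were called in 9 and 10, and its fall was lost without control 2, 3, 4 or 5 or HFpEF-scr 1 or 2. Since the same HFpEF-scr libraries stand on both sides, a low value there counts as a fall in the first comparison and as a rise in the second.

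**Figure D1:**
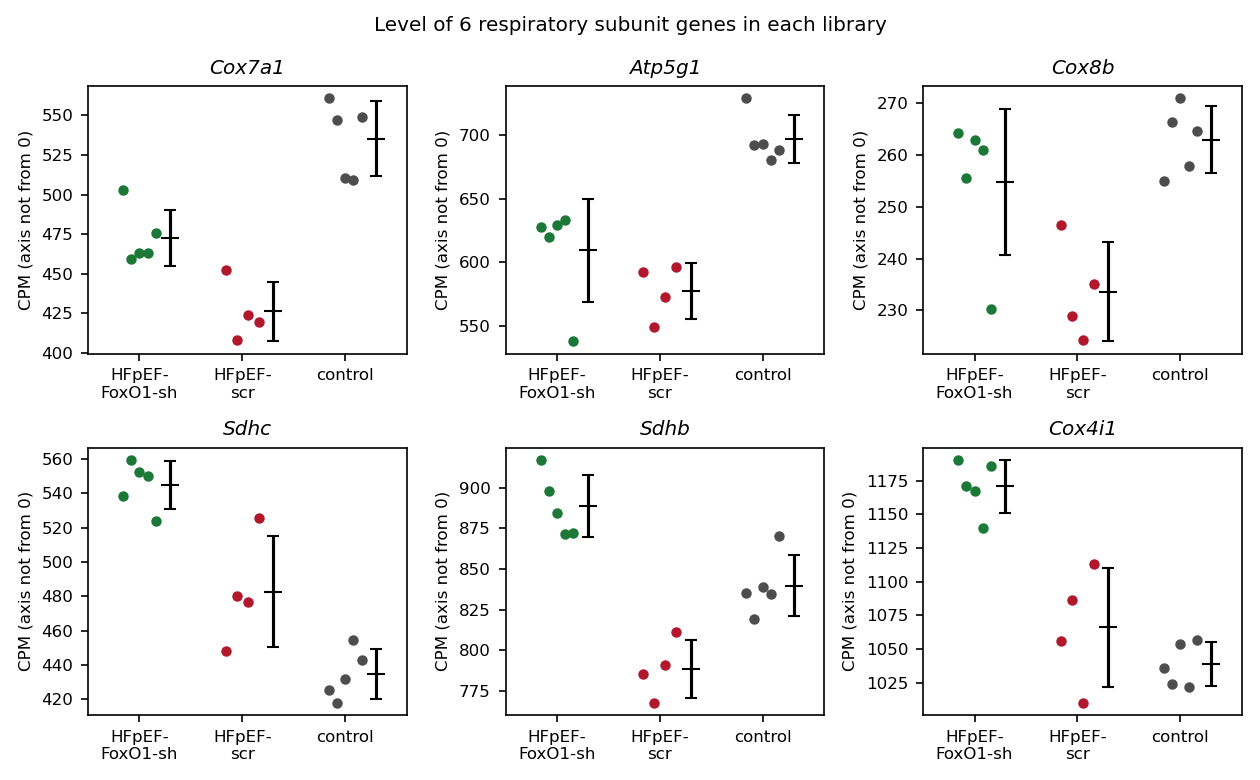
Level of 6 members in counts per 1000000 (CPM, vertical axes not starting at 0) in each library of HFpEF-FoxO1-sh (green), HFpEF-scr (red) and control (grey), with the group mean and SD in black. Cox7a1 and Atp5g1 were below all controls in both HFpEF groups, Cox8b in HFpEF-scr, and Sdhc and Cox4i1 had their highest means in HFpEF-FoxO1-sh.

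Sdhc, a membrane anchor subunit of complex II that helps hold the haem, was the only member called higher in HFpEF-scr than in control, by 0.15 ± 0.04 (edgeR adjusted p = 0.0471). It lies on chromosome 1 from 171127165 to 171150603, minus strand. Its level was 539, 559.5, 552, 549.9 and 524 CPM in the HFpEF-FoxO1-sh libraries, 448, 480, 477 and 526 CPM in HFpEF-scr and 425, 418, 432, 455 and 443 CPM in the controls. HFpEF-FoxO1-sh stood above all controls, and 1 of the 4 HFpEF-scr libraries, HFpEF-scr 1, lay within the controls. The call in HFpEF-scr was lost in 12 of 20 alternatives. It was lost without control 1, 2, 3 or 5 or without HFpEF-scr 2, 3 or 4, each of which left no member called higher.

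Beside the falls in HFpEF-scr, several markers of heart muscle cells were lower as well. Of 16 such markers 6 fell in HFpEF-scr against control and none rose, and their summed level was 137500 to 149200 CPM in HFpEF-scr, against 152500 to 162000 CPM in the controls, with none of the 16 at 0. Of 14 fibroblast markers 3 rose (Lum, Pdgfra and Fbln1) and all 14 lay above 0, with sums of 2324 to 2875 CPM in HFpEF-scr and 2134 to 2530 CPM in the controls, and none at 0. Of 22 immediate early genes tested 6 rose, and all 22 lay above 0. Of 10 mural markers 3 rose, with 8 above 0 and 2 below. Of 10 endothelial markers 2 rose, with 5 above 0 and 5 below. The endothelial sum was 2493 CPM in HFpEF-scr 1, against 1766 to 1912 CPM in the other HFpEF-scr libraries and 1776 to 1901 CPM in the controls. None of 9 macrophage markers was called, with 2 above 0 and 7 below. Over all genes tested 3.66% rose and 3.70% fell. The red cell genes summed to 5410 CPM in HFpEF-scr 1, against 499 to 1023 CPM in the other HFpEF-scr libraries and 923 to 1350 CPM in the controls. Of 6 brown fat markers, sought because brown fat also uses Cox7a1 and Cox8b, 1 was expressed highly enough to be tested, Cidea, and it rose. Cidea had 45.5 to 49.1 CPM in HFpEF-scr and 24.6 to 31.7 CPM in the controls, while the other 5 brown fat markers together reached at most 0.208 CPM in HFpEF-scr and 0.668 CPM in the controls, with Adipoq at 0 in every HFpEF-scr library and Ucp1 at 0 in every control. The part of these cell markers in the result was not tested. With the immediate early score as a covariate, Cox7a1 and Atp5g1 were the 2 members called lower, and none was called higher. Without HFpEF-scr 1 and 2 the same pair was called lower and 1 member higher, with 17 of 47 above 0. Over all genes 1001 of 13588 were called in the main fit, 406 with the covariate and 560 of 13866 in that refit. Leaving out control 2, 3 or 5 or HFpEF-scr 2 left 3 members called lower.

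Stretches upstream of 5 members are shown, picked by their changes or by their letters. The muscle forms Cox7a1 and Cox8b and the subunit c gene Atp5g1 fell in HFpEF-scr. Sdha and Cox6a1 carry matches to the site of NRF1, a factor known to bind promoters of respiratory genes, and Cox6a1 was called in no comparison. Since the 5 were picked in this way, they cannot tell whether a match goes with a change. Sequences are from RefSeq on GRCm38.p6, run 5′ to 3′ from 250 to 41 bases before the start of the gene there, and capitals mark matches to the NRF1 motif on either strand. That RefSeq start need not be the GENCODE one used for gene positions elsewhere. For Sdha the GENCODE gene reaches 74350280, the base next to the stretch. Cox7a1 is at chr7:30183921-30184130, plus strand, Cox8b at chr7:140900487-140900696, minus strand, Atp5g1 at chr11:96075672-96075881, minus strand, Sdha at chr13:74350281-74350490, minus strand and Cox6a1 at chr5:115348999-115349208, minus strand.
Cox7a1: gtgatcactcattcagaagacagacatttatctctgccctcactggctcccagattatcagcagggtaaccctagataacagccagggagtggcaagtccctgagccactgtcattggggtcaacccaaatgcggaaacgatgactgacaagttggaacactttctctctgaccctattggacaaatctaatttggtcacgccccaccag
Cox8b: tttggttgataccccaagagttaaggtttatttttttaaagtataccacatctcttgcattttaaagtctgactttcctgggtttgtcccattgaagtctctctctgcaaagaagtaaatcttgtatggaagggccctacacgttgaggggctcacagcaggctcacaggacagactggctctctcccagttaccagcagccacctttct
Atp5g1: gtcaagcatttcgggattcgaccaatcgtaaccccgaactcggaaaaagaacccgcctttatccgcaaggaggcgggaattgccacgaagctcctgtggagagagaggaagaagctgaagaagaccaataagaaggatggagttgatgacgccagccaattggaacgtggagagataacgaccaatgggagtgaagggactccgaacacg
Sdha: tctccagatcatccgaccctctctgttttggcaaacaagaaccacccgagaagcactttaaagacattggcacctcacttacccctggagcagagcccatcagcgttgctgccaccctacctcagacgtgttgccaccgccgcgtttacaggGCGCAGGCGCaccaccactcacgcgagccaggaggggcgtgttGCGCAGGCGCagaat
Cox6a1: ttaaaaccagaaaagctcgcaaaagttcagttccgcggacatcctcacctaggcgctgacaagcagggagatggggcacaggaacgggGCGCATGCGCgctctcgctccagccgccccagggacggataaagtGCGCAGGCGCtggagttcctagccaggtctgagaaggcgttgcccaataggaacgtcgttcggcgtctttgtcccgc

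In the 250 bases before the start, Sdha had 3 matches to that site, at 98, 55 and 10 bases before the start, and Cox6a1 had 2, at 162 and 117 bases. The match of Sdha at 10 bases lies inside the gene by its GENCODE position. Over the 38 members with a promoter in the table, 6 held such a match (15.8%), against 3.86% of 27025 promoters of the same length. The core bound by ETS factors such as GABP, CCGGAAG, was in 8 members (21.1%) against 7.05% of all. The ERR half-site AAGGTCA was in 2 (5.26%) against 4.05%, and the MEF2 motif in 1 (2.63%) against 3.23%, each searched on both strands. The letters of the NRF1 and ETS motifs overlap in none of the members that hold both. None of the 4 motifs was in the window of 25 of the 38 members, Cox7a1, Cox8b, Atp5g1 and Sdhb among them. The 25 also include Atp5b, Atp5c1 and Cox7c, which like Sdhb were called higher in HFpEF-FoxO1-sh against HFpEF-scr. Whether a match goes with a change was not tested. A match is a description of letters and not a bound site.

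The comparison of HFpEF-FoxO1-sh with HFpEF-scr addresses the hairpin against FoxO1 under an unchanged diet. The members lay almost all on the higher side, by small amounts, across complexes II, III, IV and V. Calls in either direction made up 3.58% of all genes tested. Of the 47 members, 18 rose, where 1.32% of all genes rose, and none fell, where 2.26% of all genes fell. The median change was 0.14, beside 0.0044 for all genes tested, and 45 members were above 0. Values did not overlap for 17 members, all higher in HFpEF-FoxO1-sh, against a background of 4.11%, and none was lower without overlap, against 4.23%. The 2 members below 0 were Cox4i2 at -0.01 ± 0.12 and Cox6a1 at -0.03 ± 0.08, neither of them called (edgeR adjusted p = 0.976 and 0.854).

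These calls lay close to the threshold, with adjusted p between 0.0107 and 0.0495, and few of them held when the data were handled in other ways. Leaving out HFpEF-scr 1, 2 or 3 left 4, 3 and 4 calls, and leaving out HFpEF-FoxO1-sh 1, 2, 3 or 4 left 1, 3, 2 and 3, whereas 25 were called without HFpEF-scr 4 and 20 without HFpEF-FoxO1-sh 5. Without HFpEF-scr 1 and 2 together no member was called by edgeR and 46 of 47 were above 0. In that refit 54 of 13866 genes were called at all. With the immediate early score as a covariate 1 member was called, and 45 were above 0. Library totals in place of TMM gave 11 calls, no filter on low counts 6 and a fit of these 2 groups alone 1, whereas the DESeq2 Wald test gave 25. Calls over all genes changed as well. Genes called higher numbered 179 in the main fit, 324 with the DESeq2 Wald test and 118 with these 2 groups alone. They were 68 with the covariate, 12 without HFpEF-scr 1 and 2, and 44 to 284 without single libraries. Sdhb was called in 19 of 20 alternatives and Uqcrc2 in 15, against 7 to 11 for Cyc1, Uqcrc1, Sdhc, Cox4i1, Cox5b, Cox7c, Atp5f1, Atp5g3 and Atp5l. Without HFpEF-FoxO1-sh 1 each of these but Sdhb lost its call. Of 22 immediate early genes 5 fell in HFpEF-FoxO1-sh (Fos, Fosb, Jund, Nr4a3 and Myc), and all 14 fibroblast markers were below 0, of which 3 fell, the collagen genes Col1a1, Col1a2 and Col3a1. The sums over the fibroblast markers were 2045 to 2569 CPM in HFpEF-FoxO1-sh and 2324 to 2875 CPM in HFpEF-scr. Over the muscle markers they were 142700 to 155400 CPM in HFpEF-FoxO1-sh and 137500 to 149200 CPM in HFpEF-scr. Of these 16 markers 1, Ckmt2, was called higher, with 12 above 0 and 4 below. Of 9 macrophage markers 2 fell (Mrc1 and Lyz2) and all 9 were below 0, with sums of 147 to 186 CPM in HFpEF-FoxO1-sh and 194 to 255 CPM in HFpEF-scr, which did not overlap. Of 10 endothelial markers 1 fell, Pecam1, with 3 above 0 and 7 below. None of 10 mural markers was called, with 9 below 0, and none of 5 red cell genes, with all 5 below 0 at a median of -1.42. Over all genes tested 1.32% rose and 2.26% fell in this comparison. None of the muscle, fibroblast, macrophage, mural or endothelial markers was at 0 over a whole group, and the part of these cell markers in the result was not tested.

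**Figure D2:**
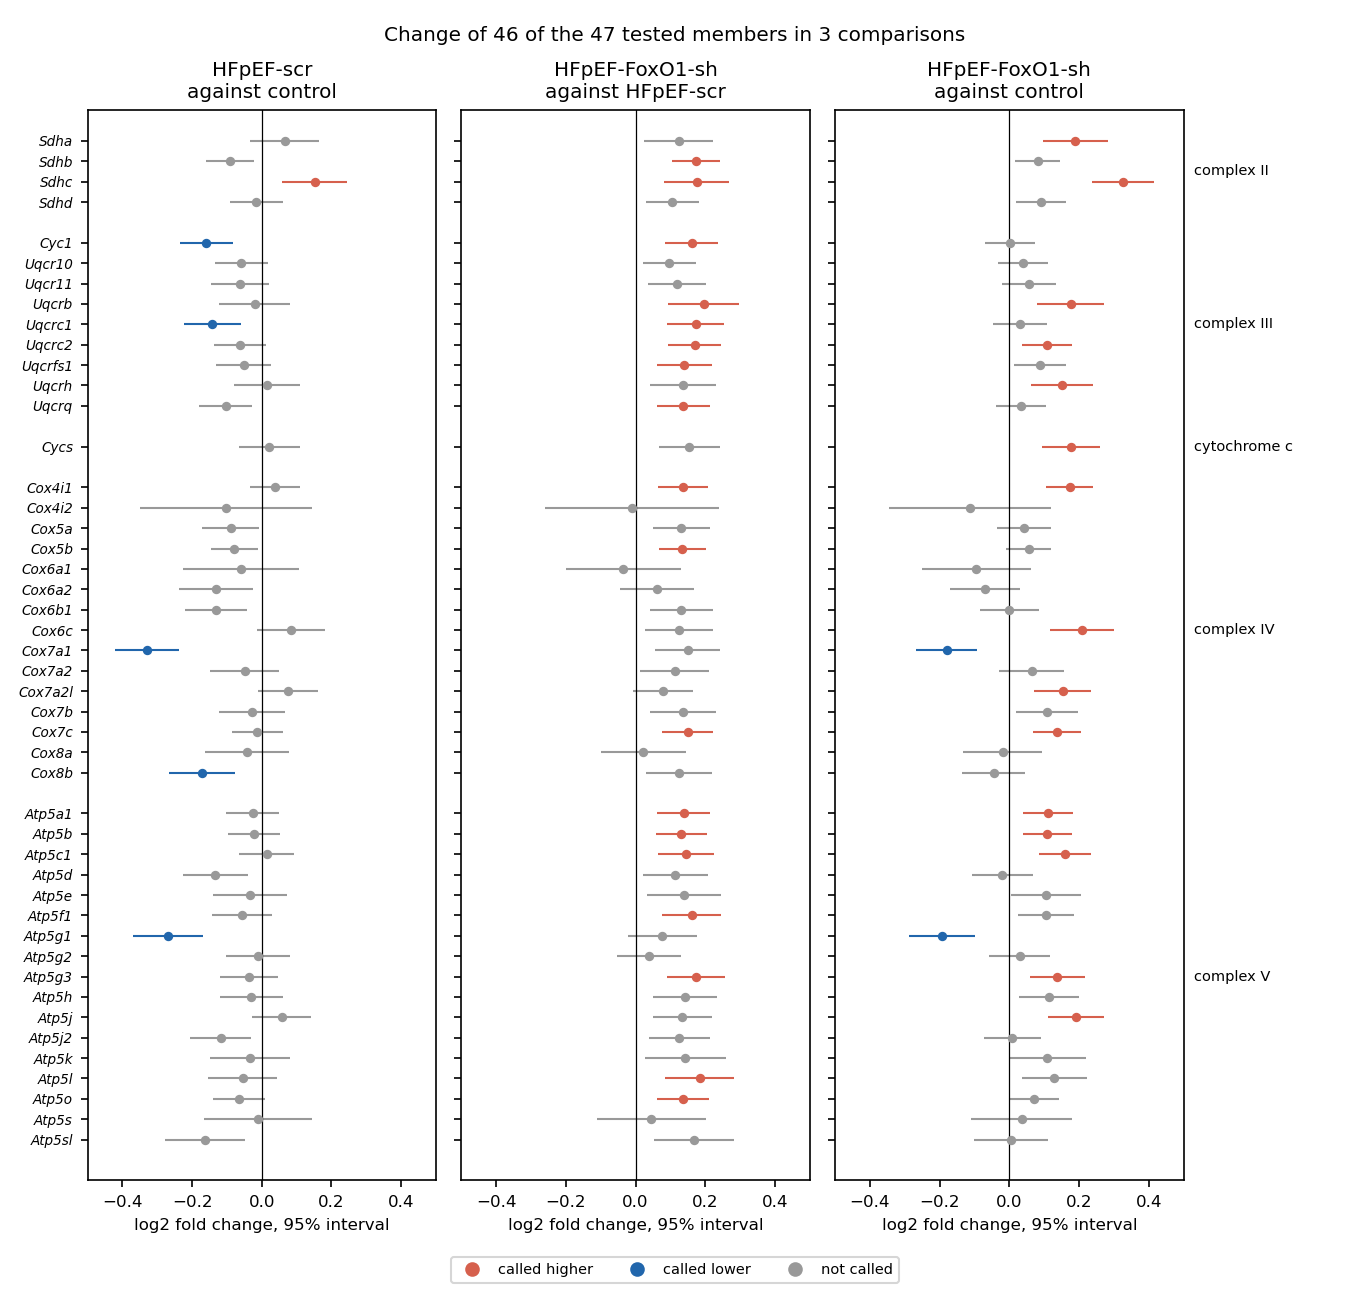
Log2 fold change with its 95% interval for 46 of the 47 tested members (rows, by complex) in HFpEF-scr against control, HFpEF-FoxO1-sh against HFpEF-scr and HFpEF-FoxO1-sh against control, with members called higher in orange, lower in blue and the others in grey. Cox6b2 is left off because its intervals run past the axis. In the middle panel 18 members are called, all to the right of 0, and Cox7a1 and Atp5g1 lie left of 0 in both panels against control.

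Complex II had 2 of its 4 members called higher in HFpEF-FoxO1-sh against HFpEF-scr, where 1.32% of all genes tested rose. Its median was 0.15. Sdhb (chromosome 4, 140961203 to 140979193, plus strand), the iron-sulfur subunit, had 917, 898, 884, 872 and 872 CPM in the HFpEF-FoxO1-sh libraries, 785, 768, 791 and 811 CPM in HFpEF-scr and 835, 819, 839, 834 and 871 CPM in the controls. Every HFpEF-FoxO1-sh library lay above every library of the other groups, and every HFpEF-scr library below every control. Its rise against HFpEF-scr held its call in 19 of 20 alternatives, the exception being the refit without HFpEF-scr 1 and 2 (adjusted p = 0.106 in edgeR). Against the controls it stood at 0.08 ± 0.03 and was not called (edgeR adjusted p = 0.0906). Sdhc rose by 0.17 ± 0.04 against HFpEF-scr (edgeR adjusted p = 0.0402), which was lost in 12 of 20 alternatives. Sdhd, the second membrane anchor, stood at 0.11 ± 0.04 and was not called.

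Complex III had 6 of its 9 members called, where 1.32% of all genes tested rose, with a median of 0.14 and all 9 above 0. They were Cyc1, Uqcrb, Uqcrc1, Uqcrc2, Uqcrfs1 and Uqcrq. Uqcrc2, a core protein, had 1040, 1013, 1032, 1024 and 1002 CPM in the HFpEF-FoxO1-sh libraries, 856, 885, 937 and 956 CPM in HFpEF-scr and 963, 936, 933, 954 and 959 CPM in the controls. The 5 HFpEF-FoxO1-sh libraries lay above all others, and the gene rose by 0.17 ± 0.04 (edgeR adjusted p = 0.0194). Its counts were not whole in any library, so they are partly shared out by the estimate, and 19.8% of its exon bases lie opposite exons of Pdzd9. Uqcrb, a small ubiquinone-binding subunit, had 563, 545, 536, 516 and 521 CPM in the HFpEF-FoxO1-sh libraries, 434, 453, 474 and 513 CPM in HFpEF-scr and 492, 481, 468, 446 and 488 CPM in the controls. It rose by 0.20 ± 0.05 against HFpEF-scr (edgeR adjusted p = 0.0366). Uqcrfs1, the Rieske iron-sulfur protein, had the adjusted p nearest the threshold, with 0.14 ± 0.04 (edgeR adjusted p = 0.0495).

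Cytochrome c itself, encoded by Cycs, had 998, 1012, 999, 990.2 and 952 CPM in the HFpEF-FoxO1-sh libraries, 900.2, 827, 896 and 936 CPM in HFpEF-scr and 930.5, 875, 829.9, 882 and 863 CPM in the controls. All HFpEF-FoxO1-sh libraries lay above all others. It just missed the call against HFpEF-scr, at 0.15 ± 0.04 (edgeR adjusted p = 0.0504), and rose by 0.18 ± 0.04 against control (edgeR adjusted p = 0.00759).

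Complex IV had 3 of 16 tested members called higher against HFpEF-scr, where 1.32% of all genes tested rose. Its median was 0.13. Cox4i1, the common form of subunit 4, had 1190, 1171, 1167, 1140 and 1186 CPM in the HFpEF-FoxO1-sh libraries, 1056, 1086, 1010 and 1113 CPM in HFpEF-scr and 1036, 1024, 1054, 1022 and 1057 CPM in the controls. It stood above all other libraries in HFpEF-FoxO1-sh and rose by 0.13 ± 0.03 (edgeR adjusted p = 0.0389). Cox5b, which encodes subunit 5B, had 1059, 1031, 1050, 1011 and 1017 CPM in the HFpEF-FoxO1-sh libraries, 941, 948, 910.3 and 968 CPM in HFpEF-scr and 1016, 998, 985, 963 and 1010 CPM in the controls. It rose by 0.13 ± 0.03 against HFpEF-scr (edgeR adjusted p = 0.0329), with HFpEF-FoxO1-sh values that overlapped those of the controls. Cox7c, which encodes subunit 7C, had 472, 452, 450, 452 and 452 CPM in the HFpEF-FoxO1-sh libraries, 401, 416, 396 and 431 CPM in HFpEF-scr and 423, 411, 417, 408 and 413 CPM in the controls. It rose by 0.15 ± 0.03 (edgeR adjusted p = 0.029) with no overlap, but its counts were not whole in any library, and a near-identical gene, Gm10012, is in the table, so its level is uncertain.

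In HFpEF-FoxO1-sh against HFpEF-scr all 17 members of complex V were above 0, with a median of 0.14. Of these 7 were called higher, where 1.32% of all genes tested rose. By place in the enzyme, they were 3 of 5 genes of the F1 head and central stalk, 2 of 4 of the peripheral stalk, 1 of 3 for subunit c and 1 of 3 other genes of the membrane part, with none of the 2 factor B genes. Atp5f1, subunit b of the peripheral stalk, had 996, 979, 957, 957 and 937 CPM in the HFpEF-FoxO1-sh libraries, 827, 817, 875 and 935 CPM in HFpEF-scr and 929, 879, 896, 884 and 900 CPM in the controls. It rose by 0.16 ± 0.04 (edgeR adjusted p = 0.04), and like that of Uqcrc2 its count was not whole in any library. Atp5l, subunit g of the membrane part, had 377, 379, 366, 365 and 343 CPM in the HFpEF-FoxO1-sh libraries, 294, 327, 319 and 347 CPM in HFpEF-scr and 346, 328, 332, 342 and 324 CPM in the controls. It rose by 0.18 ± 0.05 (edgeR adjusted p = 0.0406), with HFpEF-FoxO1-sh 5 below the highest HFpEF-scr library. Atp5o, the OSCP subunit that joins the stalk to the head, rose by 0.14 ± 0.04 (edgeR adjusted p = 0.0462), and part of its exons is shared with other annotated genes on both strands. The share of members called differed between complexes, while the medians of complexes II to V lay close together, from 0.13 to 0.15. No test of the difference in share was made.

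**Figure D3:**
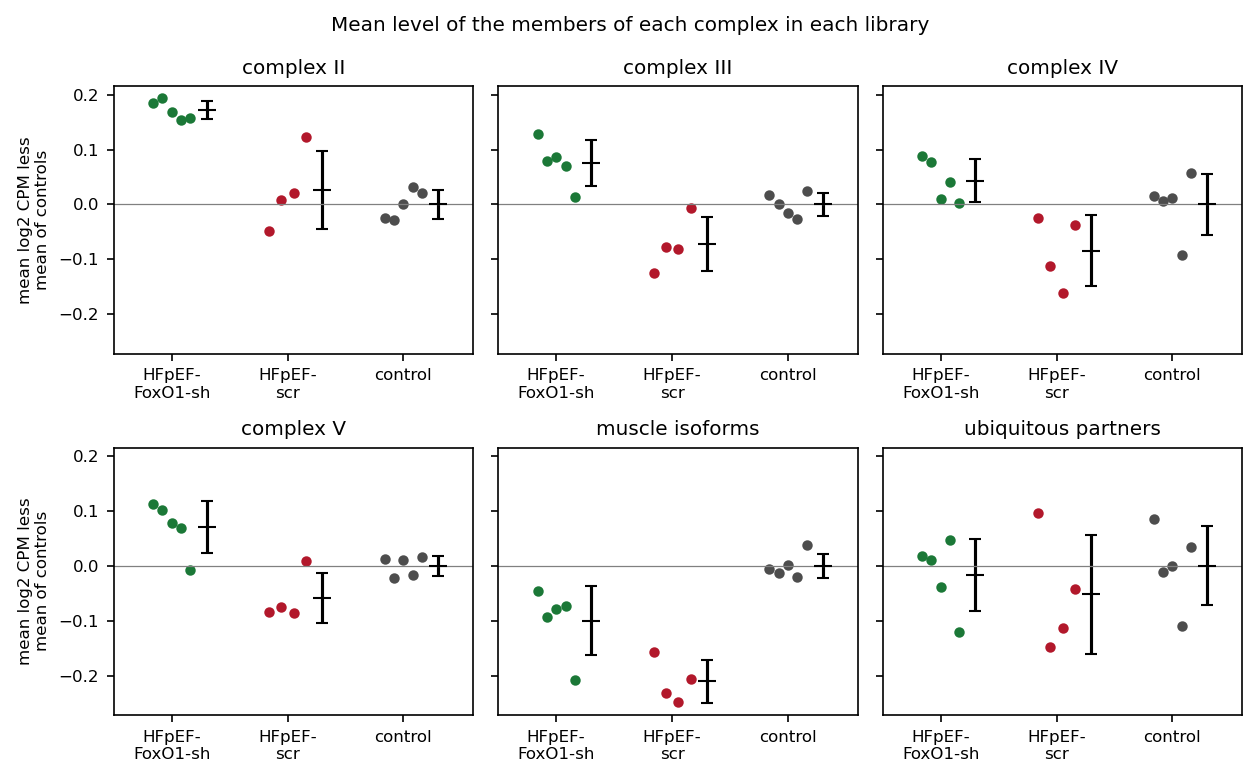
Mean log2 CPM over the tested members of each complex, and over 3 muscle isoforms (Cox6a2, Cox7a1, Cox8b) and their 3 ubiquitous partners, in each library less the mean of the controls, for HFpEF-FoxO1-sh (green), HFpEF-scr (red) and control (grey) with group mean and SD. Complex II is above the controls in all 5 HFpEF-FoxO1-sh libraries, and the muscle isoforms are below the controls in all 9 HFpEF libraries. The mean of complex IV includes the barely expressed Cox6b2.

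Averaged over its members, complex II stood at 0.17 ± 0.02 in HFpEF-FoxO1-sh and 0.03 ± 0.07 in HFpEF-scr, relative to a control mean of 0 with an SD of 0.03 (log2, SD, n = 5, 4 and 5). Complex III stood at 0.08 ± 0.04 in HFpEF-FoxO1-sh and -0.07 ± 0.05 in HFpEF-scr. Complex IV stood at 0.04 ± 0.04 and -0.08 ± 0.06 and complex V at 0.07 ± 0.05 and -0.06 ± 0.05 in the same order of groups. Complex II was the one of these 4 whose mean in HFpEF-scr was not below that of the controls. For complexes III, IV and V the lowest HFpEF-FoxO1-sh library was number 5, which lay within the range of the controls for each of them. The mean of complex IV weighs its 16 tested genes alike, among them Cox6b2 at 1.47 CPM or less. Cox6b2 changed by 0.33 ± 0.29 in HFpEF-FoxO1-sh and by -0.38 ± 0.34 in HFpEF-scr, each against control (SE). The complex IV mean without it was not computed.

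HFpEF-FoxO1-sh against control sets diet, L-NAME and the virus with the hairpin against FoxO1 together against standard diet. Of the 47 members 17 were called, where 13.0% of all genes were called. Of these 15 rose, where 6.68% of all genes rose, and 2 fell, where 6.28% of all genes fell. The median was 0.09, beside -0.003 for all genes tested, with 38 members above 0. Groups did not overlap for 18 members that were higher in HFpEF-FoxO1-sh, against a background of 6.62%, and for 2 that were lower, against 5.53%. The 2 that fell were Cox7a1 and Atp5g1. The rises comprised 2 of 4 members of complex II, 3 of 9 of complex III, Cycs, 4 of 16 of complex IV and 5 of 17 of complex V. Without HFpEF-FoxO1-sh 1, 9 members were called higher, and each other single library left out gave 10 to 14. Of the 16 muscle markers 4 fell and none rose, with sums of 142700 to 155400 CPM in HFpEF-FoxO1-sh and 152500 to 162000 CPM in the controls. Of 9 macrophage markers 7 fell, with sums of 147 to 186 CPM in HFpEF-FoxO1-sh and 216 to 287 CPM in the controls. Of 14 fibroblast markers 3 fell, but 7 lay above 0 and 7 below. Their sums overlapped, with 2045 to 2569 CPM in HFpEF-FoxO1-sh and 2134 to 2530 CPM in the controls. Of 3 atrial markers tested 1 fell, Nppa, and the 6 listed summed to 45.8 to 75.0 CPM in HFpEF-FoxO1-sh and 99.2 to 191 CPM in the controls, with Sln at 0 in HFpEF-FoxO1-sh. Of the brown fat markers Cidea rose, with 44.8 to 50.3 CPM in HFpEF-FoxO1-sh and 24.6 to 31.7 CPM in the controls, and the other 5 together reached at most 0.465 CPM in HFpEF-FoxO1-sh. Of 10 endothelial markers 1 rose, Fabp4, and 1 fell, Cdh5, and no mural or red cell marker was called. None of the muscle, macrophage or fibroblast markers was at 0 over a whole group, and the part of these cell markers in the result was not tested.

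Sdhc had the largest rise, by 0.33 ± 0.04 (edgeR adjusted p = 9.94e-05). Sdha, the flavoprotein that oxidises succinate, had 2185, 2187, 2145, 2143 and 2260 CPM in the HFpEF-FoxO1-sh libraries, 1798, 2062, 1968 and 2189 CPM in HFpEF-scr and 1859, 1874, 1905, 1991 and 1950 CPM in the controls. All HFpEF-FoxO1-sh libraries lay above all controls, whereas HFpEF-scr ran from below the controls to above 4 of the 5 HFpEF-FoxO1-sh values. It rose by 0.19 ± 0.04 against control (edgeR adjusted p = 0.0103). Sdhc and Sdha held their calls in all 20 alternatives.

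In complex IV, Cox6c, a small subunit without a tissue form, had 651, 640.4, 625, 635 and 634 CPM in the HFpEF-FoxO1-sh libraries, 553, 608, 537 and 640 CPM in HFpEF-scr and 544, 564, 566, 531 and 552 CPM in the controls. It rose by 0.21 ± 0.04 against control (edgeR adjusted p = 0.00544) with no overlap, and HFpEF-scr 2 and 4 lay above all controls as well. Cox4i1 rose by 0.17 ± 0.03 (edgeR adjusted p = 0.00225), and Cox7c rose by 0.14 ± 0.03 (edgeR adjusted p = 0.0117). Cox7a2l, the supercomplex assembly factor, had 279, 269, 261, 257 and 250.2 CPM in the HFpEF-FoxO1-sh libraries, 255, 241, 262 and 240.1 CPM in HFpEF-scr and 241, 237, 232, 232 and 243 CPM in the controls. It rose by 0.15 ± 0.04 against control (edgeR adjusted p = 0.0163), and its HFpEF-scr values overlapped those of both other groups.

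In complex V, Atp5j, coupling factor 6 of the peripheral stalk, had 561, 532, 515, 524 and 512 CPM in the HFpEF-FoxO1-sh libraries, 463, 485, 467 and 512 CPM in HFpEF-scr and 451, 459, 472, 457 and 476 CPM in the controls. It rose by 0.19 ± 0.04 against control (edgeR adjusted p = 0.00354), with no overlap with the controls, while HFpEF-scr 4 lay just above HFpEF-FoxO1-sh 5. Atp5c1, the gamma subunit of the central stalk, had 1127, 1108, 1108, 1091 and 1053 CPM in the HFpEF-FoxO1-sh libraries, 954, 989, 958 and 1069 CPM in HFpEF-scr and 966, 976, 986, 985 and 1002 CPM in the controls. HFpEF-FoxO1-sh lay above all controls and overlapped HFpEF-scr. It rose by 0.16 ± 0.04 against control (edgeR adjusted p = 0.00777). Both calls held in all 20 alternatives.

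The catalytic head subunits rose by small amounts. Atp5a1, the alpha subunit, had 5841, 5849, 5879, 5640 and 5746 CPM in the HFpEF-FoxO1-sh libraries, 4982, 5200, 5279 and 5587 CPM in HFpEF-scr and 5240, 5274, 5232, 5503 and 5552 CPM in the controls. Atp5b, the beta subunit, had 5706, 5627, 5551, 5649 and 5515 CPM in the HFpEF-FoxO1-sh libraries, 4833, 5229, 4995 and 5426 CPM in HFpEF-scr and 5107, 5115, 5319, 5210 and 5266 CPM in the controls. Every HFpEF-FoxO1-sh library lay above every library of both other groups for these 2 genes. They rose by 0.11 ± 0.03 each against control (edgeR adjusted p = 0.0407 and 0.0403) and by 0.14 ± 0.04 and 0.13 ± 0.04 against HFpEF-scr (edgeR adjusted p = 0.0462 and 0.0491). The calls against control were lost in 11 and 14 of 20 alternatives. They were lost for Atp5b in each of the 10 refits without 1 library.

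Of complex III, Uqcrh, the hinge protein, had 477, 454, 452, 457 and 411 CPM in the HFpEF-FoxO1-sh libraries, 409, 404, 392 and 435 CPM in HFpEF-scr and 414, 410.4, 412, 388 and 404 CPM in the controls. It rose by 0.15 ± 0.04 against control (edgeR adjusted p = 0.027), with HFpEF-FoxO1-sh 5 among the controls. The call was kept in 13 of 20 alternatives and lost without control 4 or 5 or HFpEF-FoxO1-sh 1, 2, 3 or 4. Uqcrb rose by 0.18 ± 0.05 (edgeR adjusted p = 0.0183) and Uqcrc2 rose by 0.11 ± 0.03 (edgeR adjusted p = 0.045). The call of Uqcrb was lost without HFpEF-FoxO1-sh 1 and with the replicate number as a block. The call of Uqcrc2 was lost in 16 of 20 alternatives, each refit without 1 library among them.

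Muscle and common isoforms of complex IV were compared within libraries, as the log2 ratio of their counts, which does not depend on library scaling. Cox7a1 against Cox7a2, the liver form of subunit 7A, stood at 1.03, 0.96, 1.00, 0.93 and 0.96 in the HFpEF-FoxO1-sh libraries, 0.95, 0.98, 1.02 and 0.81 in HFpEF-scr and 1.24, 1.23, 1.17, 1.21 and 1.24 in the controls. All 9 HFpEF libraries lay below all 5 controls, and the HFpEF groups overlapped. The ratio was 0.28 lower in HFpEF-scr than in control (exact permutation test, two-sided, p = 0.0159, the smallest that 4 against 5 libraries allow). It was 0.24 lower in HFpEF-FoxO1-sh than in control (exact permutation test, two-sided, p = 0.00794, the smallest that 5 against 5 allow). Over the 12 tests of this family the Benjamini-Hochberg adjusted p of the exact permutation tests was 0.0952 for both, so neither passed 0.05 after adjustment. With both at the smallest possible p, this pair could not have passed unless ratios of other pairs had separated too. Between HFpEF-FoxO1-sh and HFpEF-scr the ratio differed by 0.03 (exact permutation p = 0.571).

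Cox7a2 itself had 246, 237, 231, 244 and 244 CPM in the HFpEF-FoxO1-sh libraries, 234, 207, 209 and 239 CPM in HFpEF-scr and 237, 233, 226, 219.8 and 233 CPM in the controls. It was called in no comparison, and its groups overlapped in each. Per kilobase of transcript, Cox7a1 made up 74.7% ± 0.528 of the pair in HFpEF-FoxO1-sh, 74.2% ± 1.21 in HFpEF-scr and 77.8% ± 0.330 in the controls (SD, n = 5, 4 and 5).

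For subunit 8, the ratio of Cox8b to Cox8a, its liver form, stood at 1.12, 1.05, 1.13, 1.09 and 1.01 in the HFpEF-FoxO1-sh libraries, 0.86, 1.01, 0.99 and 1.05 in HFpEF-scr and 0.99, 1.11, 1.14, 1.21 and 1.08 in the controls. The groups overlapped. The ratio was 0.13 lower in HFpEF-scr than in control (exact permutation p = 0.0635, adjusted 0.190) and 0.10 higher in HFpEF-FoxO1-sh than in HFpEF-scr (exact permutation p = 0.0794, adjusted 0.190). Cox8a had 122, 124, 120, 123 and 115 CPM in the HFpEF-FoxO1-sh libraries, 135, 113, 113 and 114 CPM in HFpEF-scr and 128, 124, 123, 111 and 125 CPM in the controls, with no call, and HFpEF-scr 1 stood above the other 3 HFpEF-scr libraries. Cox8b made up 76.3% ± 0.649 of the pair per kilobase in HFpEF-FoxO1-sh, 75.1% ± 1.06 in HFpEF-scr and 76.7% ± 1.01 in the controls.

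For subunit 6A, the muscle form Cox6a2 had 1629, 1669, 1655, 1691 and 1406 CPM in the HFpEF-FoxO1-sh libraries, 1535, 1573, 1494 and 1570 CPM in HFpEF-scr and 1642, 1585, 1726, 1733 and 1768 CPM in the controls. Every HFpEF-scr library lay below every control, but the change of -0.13 ± 0.05 was not called (edgeR adjusted p = 0.124), and HFpEF-FoxO1-sh 5 was the lowest of all. Its partner Cox6a1 had 56.7, 57.3, 54.6, 60.4 and 45.8 CPM in the HFpEF-FoxO1-sh libraries, 63.3, 51.5, 55.1 and 55.3 CPM in HFpEF-scr and 64.5, 55.5, 59.1, 53.4 and 60.6 CPM in the controls, with no call and with overlap between all groups. The log2 ratio of Cox6a2 to Cox6a1 stood at 4.84, 4.86, 4.92, 4.81 and 4.94 in the HFpEF-FoxO1-sh libraries, 4.60, 4.93, 4.76 and 4.83 in HFpEF-scr and 4.67, 4.84, 4.87, 5.02 and 4.87 in the controls. It differed by -0.07 in HFpEF-scr against control, by 0.10 in HFpEF-FoxO1-sh against HFpEF-scr and by 0.02 in HFpEF-FoxO1-sh against control (exact permutation p = 0.397, 0.222 and 0.706). Cox6a2 made up 96.1% ± 0.142 of the pair per kilobase in HFpEF-FoxO1-sh, 95.8% ± 0.389 in HFpEF-scr and 96.0% ± 0.332 in the controls.

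**Figure D4:**
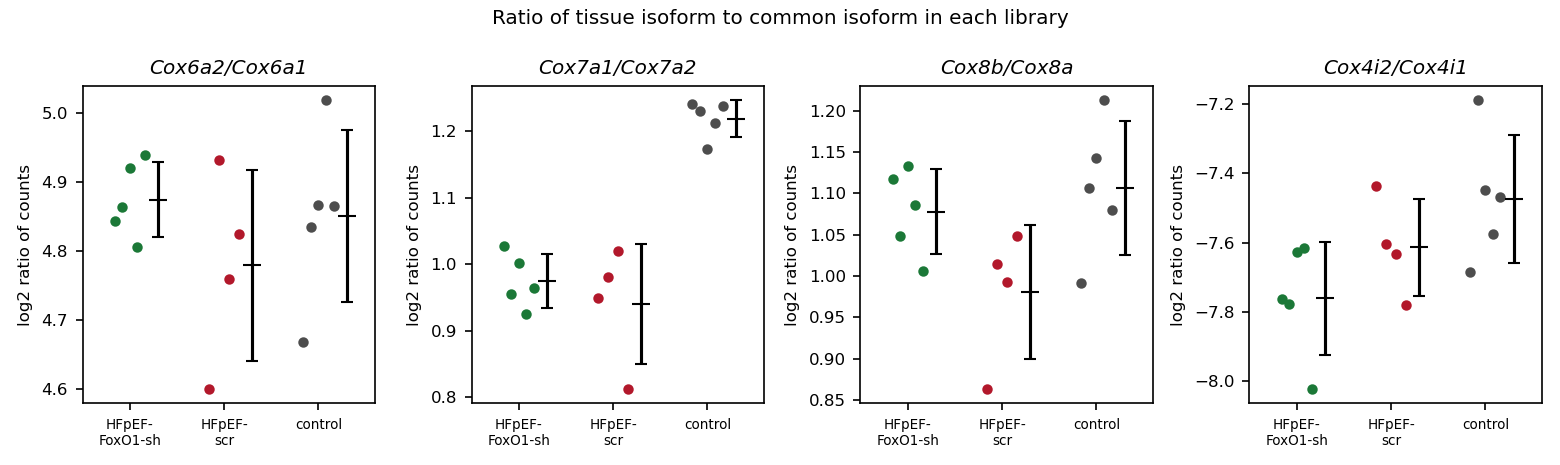
Log2 ratio of counts of the tissue form to the common form for 4 subunits of complex IV in each library of HFpEF-FoxO1-sh (green), HFpEF-scr (red) and control (grey), with group mean and SD. In the panel of Cox7a1 over Cox7a2 all HFpEF libraries lie at or below 1.03 and all controls at or above 1.17, and in the other panels the groups overlap.

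The fourth pair is Cox4i2 over Cox4i1, of which Cox4i2 made up 0.474% ± 0.0516 per kilobase in HFpEF-FoxO1-sh, 0.524% ± 0.0509 in HFpEF-scr and 0.579% ± 0.0759 in the controls. Cox4i2 had 5.44, 5.30, 5.86, 5.77 and 4.53 CPM in the HFpEF-FoxO1-sh libraries, 6.05, 5.54, 5.06 and 5.03 CPM in HFpEF-scr and 5.01, 6.97, 6.00, 5.32 and 5.93 CPM in the controls. Its log2 ratio to Cox4i1 stood at -7.76, -7.78, -7.63, -7.62 and -8.02 in the HFpEF-FoxO1-sh libraries, -7.44, -7.61, -7.63 and -7.78 in HFpEF-scr and -7.68, -7.19, -7.45, -7.58 and -7.47 in the controls. It was 0.29 lower in HFpEF-FoxO1-sh than in control (exact permutation p = 0.0317, adjusted 0.127), with 3 of 5 libraries below all controls, a pair of values in which Cox4i1 was called higher and Cox4i2 was not called (edgeR adjusted p = 0.557). In mean level, the 3 muscle forms together stood at -0.10 ± 0.06 in HFpEF-FoxO1-sh and -0.21 ± 0.04 in HFpEF-scr relative to the controls, and their 3 partners at -0.02 ± 0.07 and -0.05 ± 0.11 (log2, SD). Between HFpEF-FoxO1-sh and HFpEF-scr none of these 6 genes was called.

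In no comparison were 20 of the 47 tested members called. Of complexes II and III these were Sdhd, Uqcr10 and Uqcr11. Of complex IV they were Cox4i2, Cox5a, Cox6a1, Cox6a2, Cox6b1, Cox6b2, Cox7a2, Cox7b and Cox8a. Of complex V they were Atp5d, Atp5e, Atp5g2, Atp5h, Atp5j2, Atp5k, Atp5s and Atp5sl. Several of them lay apart between groups without a call. Cox6b1, the common form of subunit 6B, was below all controls in all 4 HFpEF-scr libraries, at -0.13 ± 0.04 (edgeR adjusted p = 0.0676), and Sdhd was above all controls in all 5 HFpEF-FoxO1-sh libraries, at 0.09 ± 0.03 (edgeR adjusted p = 0.0968). Atp5sl, related to factor B and known as an assembly factor of complex I, was also below all controls in HFpEF-scr, at -0.16 ± 0.05 (edgeR adjusted p = 0.0753). Cox6b2 had the widest change on paper, 0.70 ± 0.33 in HFpEF-FoxO1-sh against HFpEF-scr, at 1.47 CPM or less and with overlap (edgeR adjusted p = 0.253).

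Subunits of complex I are not members. The genes set beside the members here were taken by symbol. They include Ndufa4, now counted as a subunit of complex IV and called higher in both HFpEF-FoxO1-sh comparisons, and Ndufa4l2, named after it. Ndufa4l2 had the highest change in HFpEF-scr against control, 0.20, and the lowest in HFpEF-FoxO1-sh against HFpEF-scr, -0.27. Of 38 tested, none was called higher and 2 lower in HFpEF-scr against control. In HFpEF-FoxO1-sh 6 were called higher and none lower against HFpEF-scr, and 9 higher and 2 lower against control. Over all genes tested 3.66%, 1.32% and 6.68% rose and 3.70%, 2.26% and 6.28% fell in the same order of comparisons. The 2 called lower in each comparison with the controls were Ndufa11 and Ndufs7. The medians of the 38 were -0.05, 0.13 and 0.07, with 8, 37 and 33 above 0. In HFpEF-FoxO1-sh against HFpEF-scr 18 were higher without overlap (background 4.11%) and 1 lower (4.23%). Against control 11 were higher (6.62%) and 2 lower (5.53%) in HFpEF-FoxO1-sh. In HFpEF-scr against control 6 were lower without overlap (4.64%) and 0 higher (4.29%). No test set them against the members.

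Among factors that assemble these complexes, none of the 2 tested for complex II and none of the 5 for complex III was called anywhere. Of 22 for complex IV, none was called in HFpEF-scr against control or in HFpEF-FoxO1-sh against HFpEF-scr. In HFpEF-FoxO1-sh against control 3 rose, where 6.68% of all genes rose, and 1 fell, where 6.28% fell. Cox17, a copper chaperone, rose by 0.23 ± 0.05, edgeR adjusted p = 0.00497. Pet100, an assembly factor, rose by 0.36 ± 0.08, edgeR adjusted p = 0.00717. Lrpprc, which stabilises mitochondrial messenger RNA, rose by 0.16 ± 0.04, edgeR adjusted p = 0.0199. Cox11, a copper-binding assembly factor, fell by 0.25 ± 0.07, edgeR adjusted p = 0.0243. Of 6 genes for assembly or regulation of complex V, 2 fell in HFpEF-scr against control, where 3.70% of all genes fell. They were Atpif1, the inhibitor of the ATP synthase (fell by 0.36 ± 0.08, edgeR adjusted p = 0.0163) and Tmem70, an assembly factor (fell by 0.20 ± 0.04, edgeR adjusted p = 0.0132). Usmg5, a small accessory subunit, rose by 0.16 ± 0.04, edgeR adjusted p = 0.0166 in HFpEF-FoxO1-sh against control.

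Of 20 tested carriers and partners of the chain, 1 rose and 2 fell in HFpEF-scr against control. In HFpEF-FoxO1-sh 1 rose and none fell against HFpEF-scr, and 7 rose and 1 fell against control. Over all genes tested 3.66%, 1.32% and 6.68% rose and 3.70%, 2.26% and 6.28% fell in the same order of comparisons. Slc25a4, the ADP and ATP carrier of heart and muscle, fell by 0.22 ± 0.04, edgeR adjusted p = 0.00357 in HFpEF-scr and by 0.14 ± 0.04, edgeR adjusted p = 0.0225 in HFpEF-FoxO1-sh, each against control. Vdac1 and Vdac3, channels of the outer membrane, rose in HFpEF-FoxO1-sh against control, Vdac1 by 0.19 ± 0.03, edgeR adjusted p = 0.0017, and Vdac3 by 0.18 ± 0.04, edgeR adjusted p = 0.00842. Ucp2, an uncoupling protein, rose by 0.51 ± 0.12, edgeR adjusted p = 0.0163 in HFpEF-scr and by 0.47 ± 0.11, edgeR adjusted p = 0.012 in HFpEF-FoxO1-sh, each against control. The gene that rose against HFpEF-scr was Ndufa4, now counted as a subunit of complex IV but included by its symbol among the 38 above (by 0.15 ± 0.04, edgeR adjusted p = 0.044). The second that fell in HFpEF-scr against control was Coq4, of ubiquinone synthesis (by 0.35 ± 0.09, edgeR adjusted p = 0.0262).

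Of 18 regulators of mitochondrial genes, none was called in HFpEF-scr against control or in HFpEF-FoxO1-sh against HFpEF-scr. In HFpEF-FoxO1-sh against control 1 rose, where 6.68% of all genes rose, and 1 fell, where 6.28% fell. A count of 1 of 18 each way is near the share of all genes. Tfb2m, a mitochondrial transcription factor, rose by 0.23 ± 0.05, edgeR adjusted p = 0.00528. Pprc1, a coactivator related to PGC-1alpha, fell by 0.23 ± 0.07, edgeR adjusted p = 0.0338. Ppargc1a, which encodes PGC-1alpha, Esrra, a nuclear receptor, and Tfam, which packages mitochondrial DNA, were called in none of the comparisons. In HFpEF-FoxO1-sh against HFpEF-scr their changes were -0.11 ± 0.14, 0.08 ± 0.05 and 0.08 ± 0.07 (edgeR adjusted p = 0.741, 0.362 and 0.546).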

How the data were processed

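Messenger RNA of left ventricles was sequenced in 14 libraries, and the authors deposited 1 table of expected counts for 24054 genes, of which between 15.1% and 16.4% of values per library were not whole numbers. Bowtie2 2.1.0, RSEM 1.2.15 and the genome mm10 are named in the submitters' processing notes, without role or order. The gene annotation, filters and strand setting are not given in the sources used here. Of the members, Uqcrc2, Cycs, Cox7c, Atp5f1 and Atp5j had counts that were not whole in all 14 libraries.

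After rounding of the expected counts, the main test was that of edgeR 4.0.16 under R 4.3.3. filterByExpr kept 13588 genes, libraries were scaled by TMM, and all 14 libraries entered a single quasi-likelihood model of the 3 groups, from which each comparison was taken as a two-sided contrast. The Benjamini-Hochberg adjustment ran over every tested gene, with calls under 0.05, and each SE was derived from the F statistic. Log2 CPM used a prior count of 2. Isoform ratios used a pseudocount of 0.5 and the exact permutation test in scipy 1.17.1. The edgeR fit was also run on simulated counts, with changes planted in HFpEF-scr only. The planted changes were larger than any called for a member, so that run cannot tell how well changes of the reported size are found. Labels do not say that replicates are separate animals, so p-values measure the spread between these libraries, and none of the 91 pairs of libraries agreed within sampling noise.

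Per-library values are given for the isoform pairs, for members called in either comparison with control, and for the 3 called members with the smallest p of each complex in HFpEF-FoxO1-sh against HFpEF-scr. From each pathway list up to 4 called genes with the smallest p are named, and Ppargc1a, Esrra and Tfam whatever their values. Genes named beyond this to spell out a count were chosen after their values were seen. Members and lists were chosen with earlier results of these data known. Positions and transcript lengths are from GENCODE vM21 on GRCm38, and near-identical transcripts were sought with BLAST 2.17.0 at 95% identity over 50% of the length. Alternatives were DESeq2 1.42.0 and its size factors, limma 3.58.1 voom, library totals, no filter, at least 10 counts in every library, fits of 2 groups, the replicate number as a block, an immediate early covariate, leaving out libraries and, added after the data were seen, scaling on genes outside respiration and muscle.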

Additional observations from a re-analysis of the deposited data

Results flagged for a closer look

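Within groups of 4 or 5 libraries, 11 of 153 groups of member values had a lowest or highest library farther from its neighbour than Dixon's 95% limit, and chance alone marks about 1 group in 20. HFpEF-FoxO1-sh 5 was the low library in 5 of the 11. It had 1406 CPM of Cox6a2, 230.3 CPM of Cox8b, 505 CPM of Atp5d, 152 CPM of Atp5e and 538 CPM of Atp5g1, in each case below the other 4 libraries of its group. Without it 20 members were called higher against HFpEF-scr and 14 against control, and both falls against control were still called. HFpEF-FoxO1-sh 1 was high in Cox7c (472.5 CPM). HFpEF-scr 1 was high in Cox8a (135 CPM) and low in Atp5k (163 CPM), and HFpEF-scr 4 was high in Cox5a (612 CPM). Control 1 was high in Atp5g1 (729 CPM), and control 4 was low in Atp5j2 (381 CPM).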

How the results depend on the processing

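Members called higher in HFpEF-FoxO1-sh against HFpEF-scr numbered 18 in the fit as reported, 25 with the DESeq2 Wald test, 19 with limma voom, with at least 10 counts in every library and with the added scaling, 16 with DESeq2 size factors, 11 with library totals, 6 without a filter, 1 with these 2 groups alone, 1 with the immediate early covariate and 0 without HFpEF-scr 1 and 2, and 1 to 25 when single libraries were left out, with none lower in any of these. Genes called higher over all genes tested changed in number as well. They were 179 in the fit as reported, 324 with the DESeq2 Wald test, 114 with library totals and 108 without a filter. With these 2 groups alone they were 118, with the covariate 68, and without HFpEF-scr 1 and 2 they were 12. Single libraries left out gave 44 to 284. The refit without HFpEF-scr 1 and 2 has fewer libraries, and the other causes were not tested. In HFpEF-scr against control, the 5 members called lower became 9 with the DESeq2 Wald test, 2 with the immediate early covariate and 2 without HFpEF-scr 1 and 2 (3 to 6 without single libraries). The 1 called higher became 0 without a filter, with 2 groups alone, with that covariate and with the added scaling (0 to 1 without single libraries). Over all genes in HFpEF-scr against control, 1001 were called in either direction as reported and 1300 with the DESeq2 Wald test. Such calls were 406 with the covariate, and 560 in the refit without HFpEF-scr 1 and 2. In HFpEF-FoxO1-sh against control 9 to 14 members were called higher and 2 lower without single libraries. Over all genes 630 to 871 were called higher there, against 907 as reported.

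No pairing by replicate number was visible, with correlations of deviations between same-numbered libraries from -0.194 to 0.111. Low correlations cannot show that the numbers carry no pairing. With the replicate number as a block, 1 member was called higher in HFpEF-FoxO1-sh against HFpEF-scr, 0 higher and 4 lower in HFpEF-scr against control, and 11 higher and 2 lower in HFpEF-FoxO1-sh against control. Over all genes 80, 399 and 767 were called higher in the same order of comparisons. The fit as reported had 179, 498 and 907.

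Of the isoform ratios, 2 changed sign when 1 library was left out. Cox7a1 over Cox7a2 in HFpEF-FoxO1-sh against HFpEF-scr was -0.0083 without HFpEF-scr 4 (up to 0.0606 over the single libraries left out), and Cox6a2 over Cox6a1 in HFpEF-FoxO1-sh against control was -0.0219 without control 1 (up to 0.0656). No ratio passed 0.05 after adjustment in any setting. With so few libraries a single fully separated pair could not pass, and leaving libraries out raises the smallest possible p further. Over the single members named, 602 alternative values kept direction and side of the threshold, 195 lost the call and 3 gained one.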
